A study of Canis lupus familiaris with 18 samples.

Results

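Proteasome subunits and assembly factors were followed across 18 Affymetrix canine gene expression arrays of dog heart tissue. The members were all genes whose single platform symbol begins with PSMA, PSMB, PSMC, PSMD, PSME, PSMF or PSMG, together with PAAF1. They came to 45 of the 15115 genes with a symbol of their own on the array. Each member was read from its probe set of highest mean signal over all arrays, and 44 passed the filter on low signal. The remaining member, PSMA8, an alpha subunit known from the testis, lay between 3.46 and 3.71 log2 signal on all arrays, under the filter limit of 5.31. Of the genes with such symbols in the RefSeq annotation of the dog, PSMB7, PSMC1, PSMD1, PSMD4, PSMD5 and PSMG4 had no probe set of their symbol alone and were not analysed here. The symbol rule also took PSMC3IP, a meiotic recombination factor, and PSME3IP1, a binding partner of PSME3, which are no proteasome subunits.

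Samples were taken from 2 chambers, the right atrium (RA) and right ventricle (RV), with 3 arrays for each chamber and stage. Early and late heart failure (HF) was produced by continuous rapid pacing of the ventricle, which the labels give as 2 weeks for early HF and 5 weeks for late HF. Controls of both chambers make up the remaining groups, and the labels describe no sham pacing for them. All groups were adult dogs, mongrels or beagles, and no label gives the breed of an array's animal. The titles call the arrays of a group biological replicates, but no label identifies the animals, and a p-value here reflects the scatter among these arrays. The RNA was total RNA from a small frozen piece of each chamber wall, so all its cell types contributed, and fewer cells of a type and less RNA per cell cannot be told apart.

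The proteasome is the protease that degrades ubiquitin-tagged proteins in the cytosol and nucleus. Its core is a barrel of alpha rings, which gate the entrance, and beta rings, which hold the cutting sites. A regulatory particle with an ATPase base and a lid caps the barrel, binds the ubiquitin chain, removes it and unfolds the substrate. Dedicated chaperones help to build both particles. In immune cells, and in other cells exposed to interferon, the inducible beta subunits PSMB8, PSMB9 and PSMB10 take the place of PSMB5, PSMB6 and PSMB7. In cardiac muscle the proteasome removes worn or misfolded sarcomere proteins.

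The tissue labels were checked against chamber markers. Over the 5 right atrium markers MYL4, MYL7, DKK3, GJA5 and PAM, mean log2 signal was 12.57 to 12.69 in RA controls and 8.62 to 9.53 in RV controls. Over the right ventricle markers MYL2, MYL3 and IRX5 it was 6.37 to 7.53 in RA controls and 11.92 to 12.15 in RV controls. The library labelled RA late 3 went against its label, with 10.36 on the atrial markers and 12.05 on the ventricular ones. RA early arrays had ventricular marker means of 7.90 to 9.49, RA late 1 and 2 had 8.40 and 8.34, and RV late 1 had 10.66. Atrial marker means were 8.78 to 9.56 in RV early HF and 9.55, 10.21 and 10.06 in RV late HF. All RV late arrays thus lay above the RV controls. Against control 5 of 5 atrial markers were positive in RV late HF (median 0.82), where 46.5% of all probe sets were. The part of these markers in the RV values was not tested. A further array, RA late 1, had the highest signal of all 18 arrays in 22 of the 44 members tested, while it was highest for 15.5% and lowest for 18.2% of all probe sets. The late RA values that a result turns on are also given without RA late 3, and without RA late 1 where that array moved them. All shares of positive differences over all probe sets are from the full 18 arrays. Counts of positive members without an array therefore have no share of their own setting beside them. The same holds for counts at an unadjusted limma p without RA late 1. Cardiac myocyte markers averaged 12.41 log2 signal on RA late 1, the lowest of any array, and 12.56 to 12.86 in RA early HF, against 12.96 to 13.06 in RA controls. GAPDH probe sets at the 3' end exceeded those at the 5' end, a measure of RNA breakdown, by a log2 signal of 1.29 to 1.62 in RA early HF and 1.03 to 1.51 in RA late HF, against 1.15 to 1.61 in RA controls.

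Of the 44 members, PAAF1 fell in the right atrium at both stages of heart failure and PSMC5 fell there in early HF. No other member passed the test in any comparison of HF with control. PAAF1 was also the only member that differed between the control chambers, where it was higher in RA. The test was limma's moderated test over all 25752 probe sets, with a threshold of 0.05 on the Benjamini-Hochberg adjusted p. In RA early HF the 2 members lower and 0 higher, of 44, compare with 0.812% of all probe sets called, 0.505% as lower and 0.307% as higher. At an unadjusted limma p under 0.05 it was 7 members (15.9%), 1 higher and 6 lower, against 13.9% of all probe sets. RA late HF had 1 member lower and 0 higher, where 0.0699% of all probe sets were called, 0.0388% as lower and 0.0311% as higher, and 6 members (13.6%) at an unadjusted limma p under 0.05, against 11.7% of all probe sets. That count of 6 was 14 without RA late 3, where 4928 of 25752 probe sets had such a p against 3018 with all arrays. It was 1 without RA late 1. RV early HF had 0 members past the threshold, where 0.105% of all probe sets passed, and 2 members at an unadjusted limma p under 0.05, against 8.48% of all probe sets. RV late HF had 0 members and 0 probe sets past it, and 1 member at an unadjusted limma p under 0.05, against 9.21% of all probe sets. The 95% interval of the difference from control lay within 1.5-fold in either direction for 36 of 44 members in RA early HF, 35 in RA late HF, 40 in RV early HF and 41 in RV late HF.

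**Figure D1:**
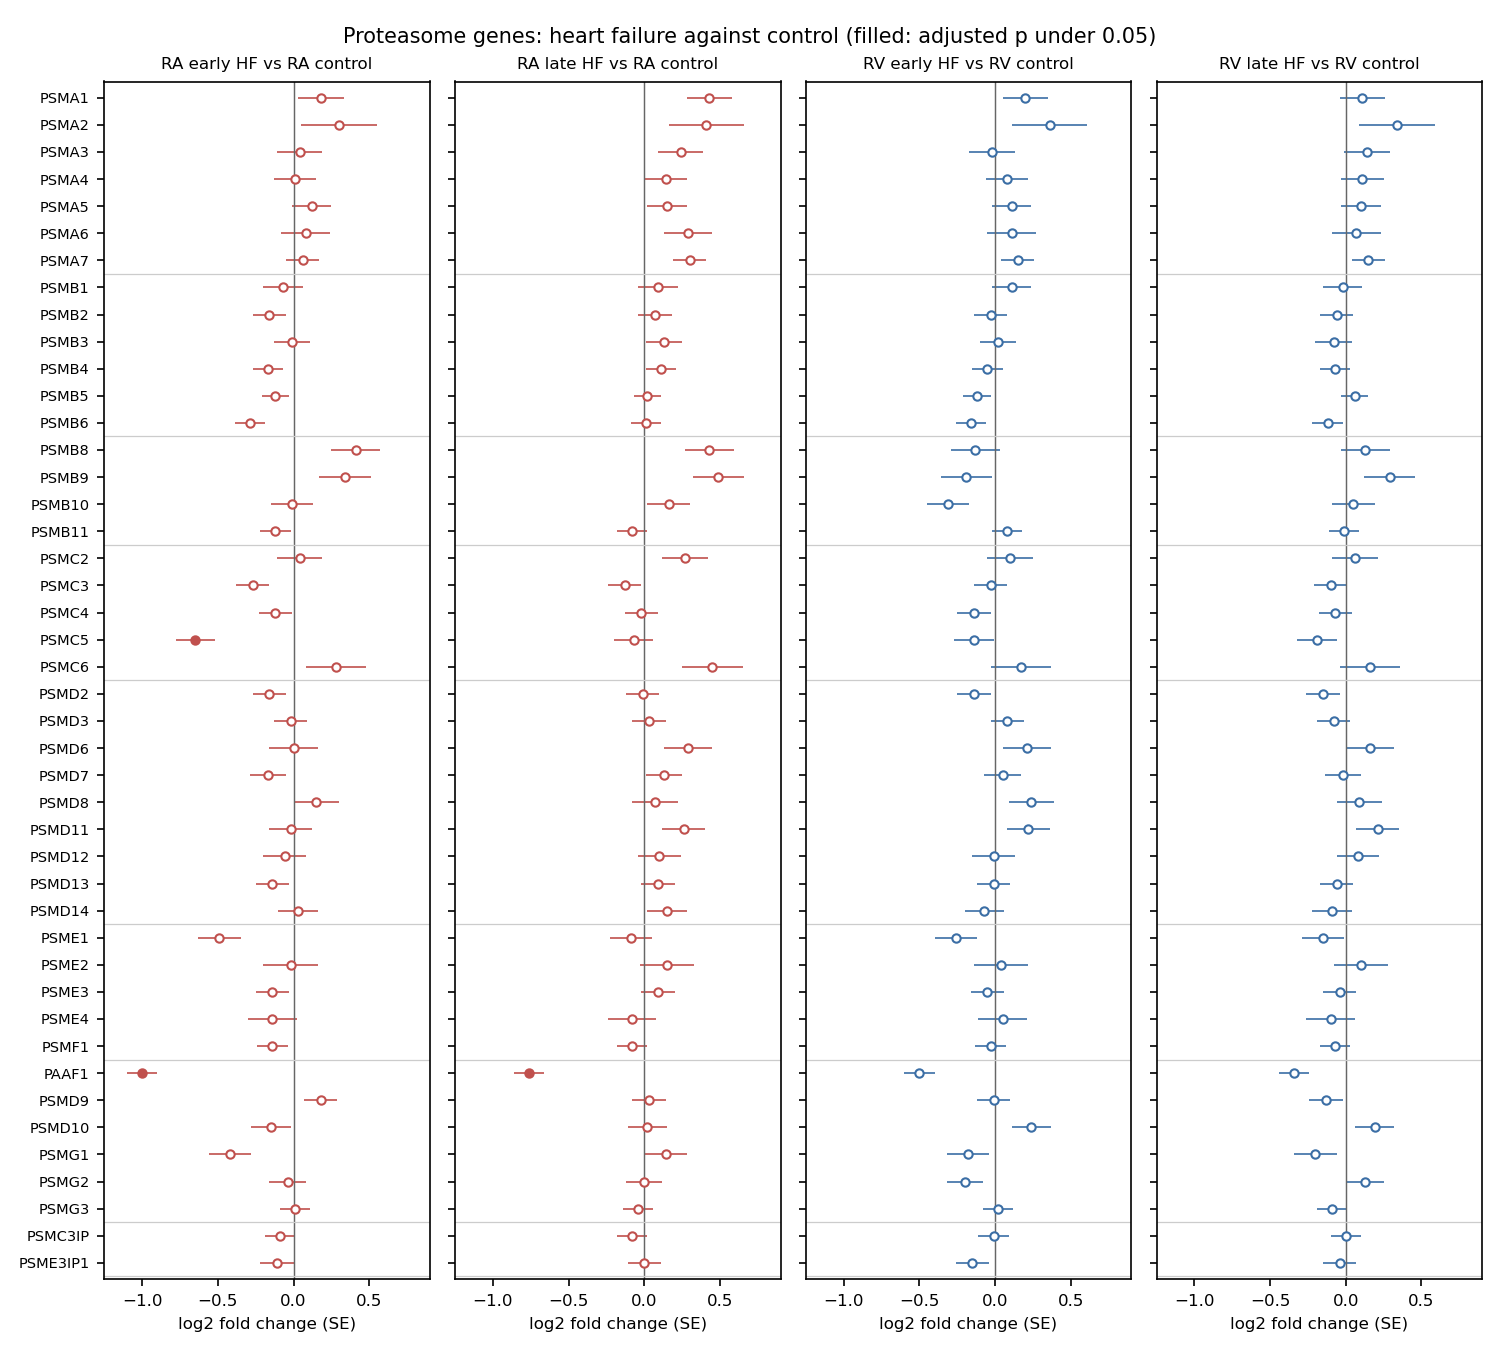
Log2 fold change of each tested member against the control of its chamber in RA early HF, RA late HF, RV early HF and RV late HF, grouped by role, with bars for the standard error of the limma fit and filled points for members past an adjusted p of 0.05. PAAF1 in both RA panels and PSMC5 in RA early HF are the 3 filled points.

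PAAF1 encodes a chaperone of the regulatory particle that binds proteasomal ATPases. In the right atrium its log2 signal was 7.39, 7.29 and 7.49 in controls, 6.59, 6.35 and 6.23 in early HF and 6.59, 6.76 and 6.55 in late HF. In the right ventricle its signal was 6.64, 6.63 and 6.70 in controls, 6.04, 6.27 and 6.16 in early HF and 6.39, 6.38 and 6.17 in late HF. Every HF array lay below every control array of its own chamber. Of the 6 arrays labelled atrial HF, 5 also lay below every ventricular control, and RA late 3 (6.55), whose chamber markers went against its label, is among them. The part of the higher ventricular markers on these atrial arrays in the PAAF1 values was not tested.

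In RA early HF, PAAF1 averaged 6.39 ± 0.18 against 7.39 ± 0.10 in RA controls (SD, n = 3 each). This was a log2 fold change of -1.0 (SE 0.10, adjusted p = 0.000615), a 2.0-fold lower signal, and PAAF1 had the smallest p of all 25752 probe sets in that comparison. Late HF averaged 6.63 ± 0.11, and the log2 fold change was -0.76 (SE 0.10, adjusted p = 0.00994), with rank 4 by p. Without RA late 3 the late change was -0.72 (adjusted p = 0.0143). The late call was lost without RA control 1 (adjusted p = 0.104), without RA late 1 (adjusted p = 0.0621) and when only the compared groups were fitted (adjusted p = 0.592). Both atrial changes share the same controls.

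In the ventricle PAAF1 was 0.50 lower on the log2 scale in early HF (SE 0.10, adjusted p = 0.064) and 0.34 lower in late HF (SE 0.10, adjusted p = 0.428), and neither passed. The early ventricular value passed without RA late 3 (adjusted p = 0.0427), without RA early 1 (adjusted p = 0.0452), without RV early 2 and with array weights (adjusted p = 0.0118). The atrial minus the ventricular change was -0.50 in early HF (SE 0.15, adjusted p = 0.663) and -0.41 in late HF (SE 0.15, adjusted p = 0.588), so a difference between the chambers did not pass. Between controls, RA exceeded RV by 0.73 (SE 0.10, adjusted p = 0.00123), a 1.66-fold higher signal, where 2.9% of all probe sets were called, 1.69% as higher and 1.21% as lower.

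A second PAAF1 probe set moved in the same direction by less. Its log2 signal was 6.60, 6.86 and 6.65 in RA controls, 6.41, 6.48 and 6.60 in RA early HF and 6.45, 6.55 and 6.52 in RA late HF. Early HF lay at or below the lowest control (6.60) on all 3 arrays, and the log2 fold change was -0.21 (adjusted p = 0.33) in early and -0.20 (adjusted p = 0.43) in late HF. It was 0.25 higher in RA than in RV controls (adjusted p = 0.169). With both probe sets averaged, PAAF1 was -0.60 in RA early HF (adjusted p = 0.00276) and -0.48 in RA late HF (adjusted p = 0.0228), which still passed. The size of the atrial decrease therefore differed between probe sets, and the files do not say which transcripts each one reads.

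**Figure D2:**
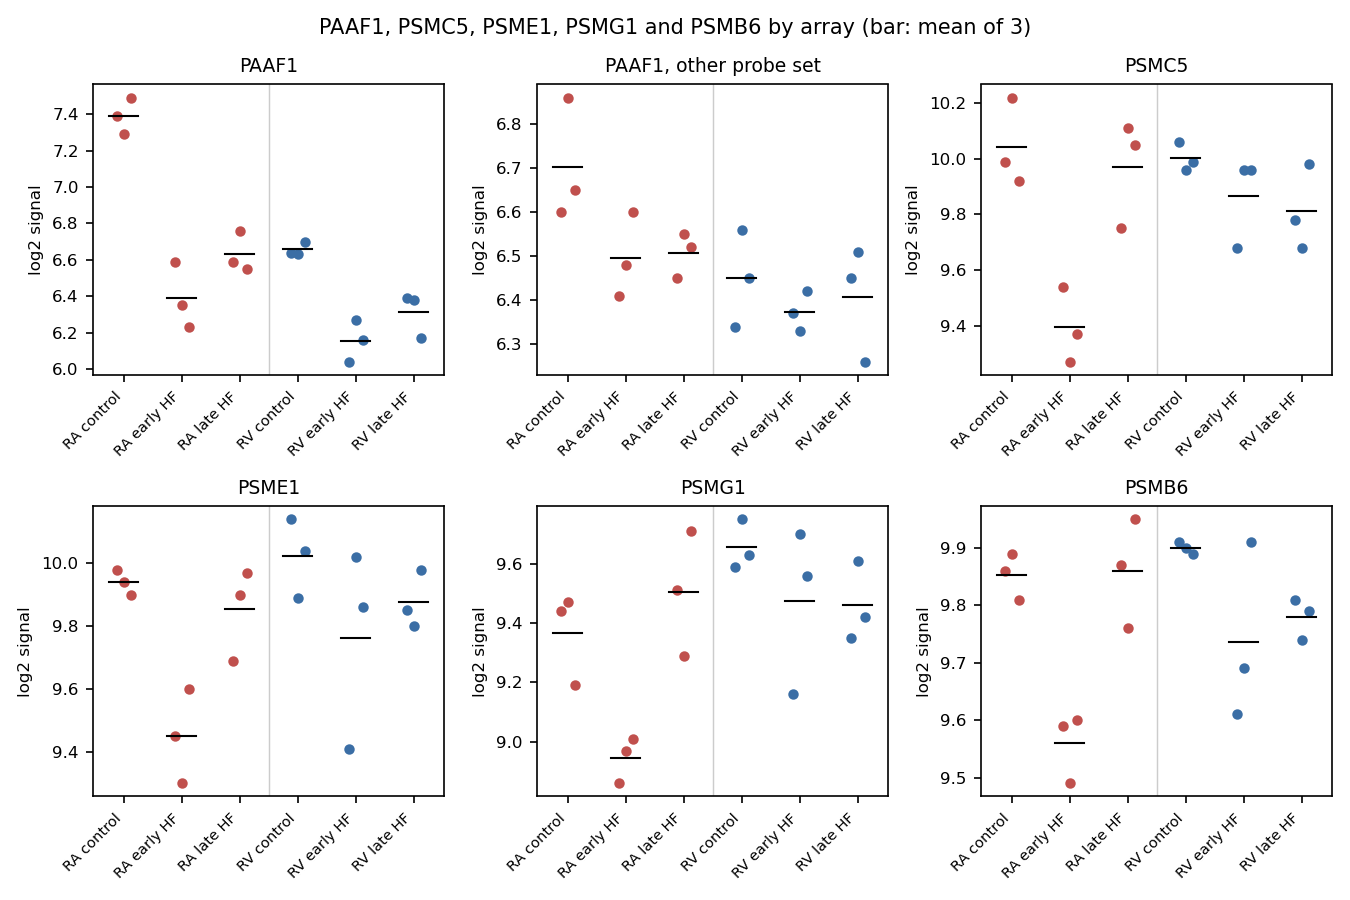
Log2 signal on each array, with a bar at the mean of 3, for both PAAF1 probe sets, PSMC5, PSME1, PSMG1 and PSMB6 in RA (left) and RV (right), each in the order control, early HF, late HF. All 6 atrial HF arrays lie below the 3 atrial controls for the first PAAF1 probe set, and the 3 RA early arrays lie below the RA controls in the PSMC5, PSME1, PSMG1 and PSMB6 panels.

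The other assembly factors gave no call. PSMG1, which with PSMG2 starts the assembly of the alpha ring, had log2 signals of 8.86, 8.97 and 9.01 in RA early HF and 9.44, 9.47 and 9.19 in RA controls. The groups did not overlap, but the change of -0.42 (SE 0.14) had an adjusted p of 0.174, and another PSMG1 probe set gave -0.28. PSMG1 was 9.51, 9.29 and 9.71 in RA late HF, which is above every early array. PSMG2 was 10.59, 10.99 and 11.06 in RV early HF, against 11.04, 11.01 and 11.19 in RV controls, a change of -0.20 (adjusted p = 0.721). The base chaperone PSMD10, also known as gankyrin, was 0.24 higher in RV early HF (adjusted p = 0.693) and 0.19 higher in RV late HF (adjusted p = 0.666). PSMD9, another base chaperone, was 0.18 higher in RA early HF (adjusted p = 0.508). PSMG3, a further chaperone of the alpha ring, had group means within 0.19 of each other.

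Among the 5 ATPases of the base, PSMC5 was the one that passed. PSMC5 had log2 signals of 9.54, 9.27 and 9.37 in RA early HF, against 9.99, 10.22 and 9.92 in RA controls. The early arrays all lay below the controls, at -0.65 (SE 0.13, adjusted p = 0.0326), a 1.57-fold lower signal. Late RA arrays had 9.75, 10.11 and 10.05, which overlapped the controls. In RV early HF it was 9.68, 9.96 and 9.96 and in RV late HF 9.78, 9.68 and 9.98, against 10.06, 9.96 and 9.99 in RV controls, with no call.

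The PSMC5 call was the less stable of the 2 in RA early HF. It was lost without RA control 1 (adjusted p = 0.109), RA control 2 (0.145), RA control 3 (0.0602), RA early 2 (0.0852) or RA early 3 (0.108). It was also lost with replicate numbers as a block (adjusted p = 0.0558). PSMC5 had a single probe set, of the kind that may cross-hybridise with related transcripts. The atrial minus the ventricular change in early HF was -0.51 (SE 0.18, adjusted p = 0.74).

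The other ATPases did not pass. PSMC3 had log2 signals of 9.78, 9.68 and 10.05 in RA early HF, against 10.07, 10.18 and 10.06 in RA controls, and the change of -0.27 had an adjusted p of 0.291. PSMC6 went the other way, with 9.84, 9.60 and 9.77 in RA early HF and 9.44, 9.58 and 9.34 in RA controls, which did not overlap (0.28, adjusted p = 0.604). PSMC6 was 10.49, 9.74 and 9.49 in RA late HF, with RA late 1 far above the other arrays. The late change was 0.45 (SE 0.20, adjusted p = 0.40), 0.66 without RA late 3 (adjusted p = 0.0851) and 0.16 without RA late 1 (adjusted p = 0.952). PSMC2 had no call either, at 0.04 in RA early HF and 0.27 in RA late HF (adjusted p = 0.949 and 0.522). Its late change was 0.36 without RA late 3 and 0.08 without RA late 1.

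None of the 7 alpha ring members tested passed in any comparison with control, although their fitted differences were mostly positive. At an unadjusted limma p under 0.05 there were 2, PSMA1 and PSMA7, both in RA late HF, where 11.7% of all probe sets had such a p. This late count was 6 without RA late 3, where 4928 of 25752 probe sets had such a p. Without RA late 1 it was 0. All 7 were positive in RA early HF (median 0.08), RA late HF (median 0.29) and RV late HF (median 0.11), and 6 of 7 in RV early HF (median 0.11). Without RA late 1 the late RA median was 0.04, and without RA late 3 it was 0.39, with 7 of 7 positive under both. Over all probe sets the medians were -0.02, -0.01, -0.01 and -0.01 and 45.1%, 47.8%, 46.5% and 47.1% of differences were positive. Of the 7, PSMA1 had the smallest p, at 8.26, 7.97 and 7.83 in RA late HF, against 7.70, 7.79 and 7.29 in RA controls (0.43, SE 0.15, adjusted p = 0.295). PSMA7 was 11.43, 11.14 and 11.22 in RA late HF, against 10.93, 11.04 and 10.91 in RA controls (0.30, SE 0.11, adjusted p = 0.312). Both genes had every late array above every control. Both were read from a probe set that may cross-hybridise, as were 25 of the 45 members. Without RA late 3 their changes were 0.52 (adjusted p = 0.0952) and 0.33 (adjusted p = 0.163), and without RA late 1 they were 0.31 (adjusted p = 0.83) and 0.22 (adjusted p = 0.836).

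PSMA2 had the widest spread of the alpha ring. Its log2 signal was 10.41, 9.49 and 9.03 in RA late HF, against 9.37, 9.22 and 9.10 in RA controls, so RA late 1 stood far above and RA late 3 below the controls. The late change was 0.41 (SE 0.25, adjusted p = 0.533), 0.72 without RA late 3 (adjusted p = 0.0944) and 0.03 without RA late 1 (adjusted p = 0.999). The early RA arrays had 9.44, 9.43 and 9.71, above all RA controls (0.30, adjusted p = 0.679). In RV early HF it was 9.43, 9.45 and 9.85, against 9.29, 9.18 and 9.18 in RV controls, again without overlap (0.36, adjusted p = 0.786). The 95% interval for PSMA2 reached beyond 1.5-fold in all 4 comparisons with control, so these intervals hold a 1.5-fold difference as well as 0.

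The 6 constitutive beta subunits tested all had negative differences in RA early HF (median -0.14) and positive ones in RA late HF (median 0.08). Over all probe sets 45.1% and 47.8% of these differences were positive. None of the 6 passed in any comparison with control. The late RA median was 0.01 without RA late 1 and 0.14 without RA late 3, with 5 of 6 positive under each. PSMB6 in RA early HF was the 1 difference from control in this group with an unadjusted limma p under 0.05, as 13.9% of all probe sets had there. PSMB6, which carries the caspase-like site, was 9.59, 9.49 and 9.60 in RA early HF, against 9.86, 9.89 and 9.81 in RA controls. The groups did not overlap (-0.29, SE 0.10, adjusted p = 0.158). Its late RA values of 9.87, 9.76 and 9.95 overlapped the controls. PSMB5, which carries the chymotrypsin-like site, was 11.10, 10.94 and 10.98 in RA early HF, against 11.12, 11.16 and 11.11 in RA controls, a gap of 0.01 between the closest arrays. PSMB4 was 10.50, 10.50 and 10.45 in RA early HF, against 10.63, 10.72 and 10.60 in RA controls (-0.17, adjusted p = 0.492).

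Of the inducible subunits, PSMB8 and PSMB9 had their highest group means in failing atria, without passing the test. PSMB8 was 7.30, 6.94 and 7.39 in RA early HF and 7.53, 7.22 and 6.93 in RA late HF, against 6.68, 6.68 and 7.03 in RA controls. The changes were 0.41 in early HF (SE 0.16, adjusted p = 0.247) and 0.43 in late HF (SE 0.16, adjusted p = 0.327), and both groups overlapped the controls. A second PSMB8 probe set gave 0.23 and 0.24. In the ventricle PSMB8 differed by -0.13 in early and 0.13 in late HF. PSMB10 was 6.97, 7.05 and 7.04 in RA early HF, against 7.03, 7.10 and 6.96 in RA controls. In RA late HF PSMB10 was 7.59, 7.11 and 6.86. Its late change was 0.32 without RA late 3 (adjusted p = 0.222) and -0.05 without RA late 1 (adjusted p = 0.987).

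PSMB9 was 7.98, 7.45 and 7.83 in RA early HF and 8.20, 8.10 and 7.40 in RA late HF, against 7.33, 7.38 and 7.52 in RA controls. RA late 3 lay within the control range and the other late arrays well above it. The change was 0.34 in early HF (SE 0.17, adjusted p = 0.405) and 0.49 in late HF (SE 0.17, adjusted p = 0.309). Without RA late 3 the late change was 0.74 (SE 0.14, adjusted p = 0.0209), which passed, and without RA late 1 it was 0.34 (adjusted p = 0.84). Leaving out RA late 3 raised the calls over all probe sets in RA late HF from 18 to 425. The late change of PSMB8 was 0.58 without RA late 3 (adjusted p = 0.0763) and 0.28 without RA late 1 (adjusted p = 0.863).

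In the ventricle PSMB9 was 7.17, 7.22 and 7.09 in RV early HF and 7.78, 7.48 and 7.68 in RV late HF, against 7.30, 7.28 and 7.48 in RV controls. Early arrays lay below all controls and late arrays at or above the highest control. Late exceeded early HF by 0.49 (SE 0.17, adjusted p = 0.79) and PSMB10 did so by 0.36 (adjusted p = 0.866), neither of which passed. PSMB10 was 6.58, 6.72 and 6.91 in RV early HF, against 7.20, 7.07 and 6.86 in RV controls (-0.31, adjusted p = 0.589). The early change of PSMB8 and of PSMB9 was 0.54 more positive in RA than in RV (adjusted p = 0.851 and 0.902). PSMB11, the thymic subunit, lay between 6.38 and 6.51 in all group means.

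Most listed leukocyte markers moved with these values in the atrium. The mean log2 signal of the tested list was 7.24 to 7.71 in RA early HF and 7.59, 7.33 and 6.82 in RA late HF, against 6.81 to 6.91 in RA controls. For RA early HF, 16 of the 19 tested markers had positive differences (median 0.51), where 45.1% of all probe sets were positive, and 3 were negative. Of the 19, 0 passed and 13 had an unadjusted limma p under 0.05, as did 13.9% of all probe sets. The T cell markers did not rise clearly. CD4 was 7.40, 7.60 and 7.56 in RA early HF, against 7.79, 7.66 and 7.82 in RA controls, and CD8A was 5.49, 5.68 and 5.72, against 5.77, 5.55 and 5.91. CD3E was 6.62, 6.97 and 6.80, against 6.73, 6.76 and 6.83. In RV the list averaged 6.73 to 7.10 in early HF and 7.05 to 7.20 in late HF, against 6.75 to 6.87 in controls. The array order of PSMB9 in late RA, with RA late 1 highest and RA late 3 lowest, was also that of the leukocyte list. The fibroblast, endothelial, and smooth muscle and pericyte lists and the list of ubiquitin genes had this order too. The cardiac myocyte list had the reverse order (12.41, 12.87 and 13.12). PTPRC, FCER1G, ITGAM, CD3D, CD79A, CD79B and MS4A1, defining leukocyte or lymphocyte markers, lay below the signal filter on average. The part of leukocytes in the PSMB8 and PSMB9 values was not tested. Markers of other cells moved in RA early HF as well. Of the cardiac myocyte markers 8 of 10 tested were negative and 2 positive, where 45.1% of all probe sets were positive. TNNT2, cardiac troponin T, fell by 0.42 (adjusted p = 0.0389). Fibroblast markers were positive for 9 of 9 tested (median 0.93), where 45.1% of all probe sets were, and POSTN, a matrix protein of activated fibroblasts, rose by 4.61 (adjusted p = 0.0325). The fibroblast list averaged 10.70 to 11.64 log2 signal in RA early HF and 11.40, 10.27 and 9.22 in RA late HF, against 9.68 to 9.87 in RA controls. Smooth muscle and pericyte markers were positive for 5 of 6, with means of 8.15 to 8.43 in RA early HF against 7.90 to 8.08 in RA controls, and the pericyte marker RGS5 rose by 1.05 (adjusted p = 0.0348). Endothelial markers were positive for 5 of 8, with means of 8.0 to 8.24 against 7.74 to 7.92, and EMCN (0.80), VWF (0.88) and PECAM1 (0.76) did not pass. The part of these cell types in the PAAF1 and PSMC5 values was not tested either.

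**Figure D3:**
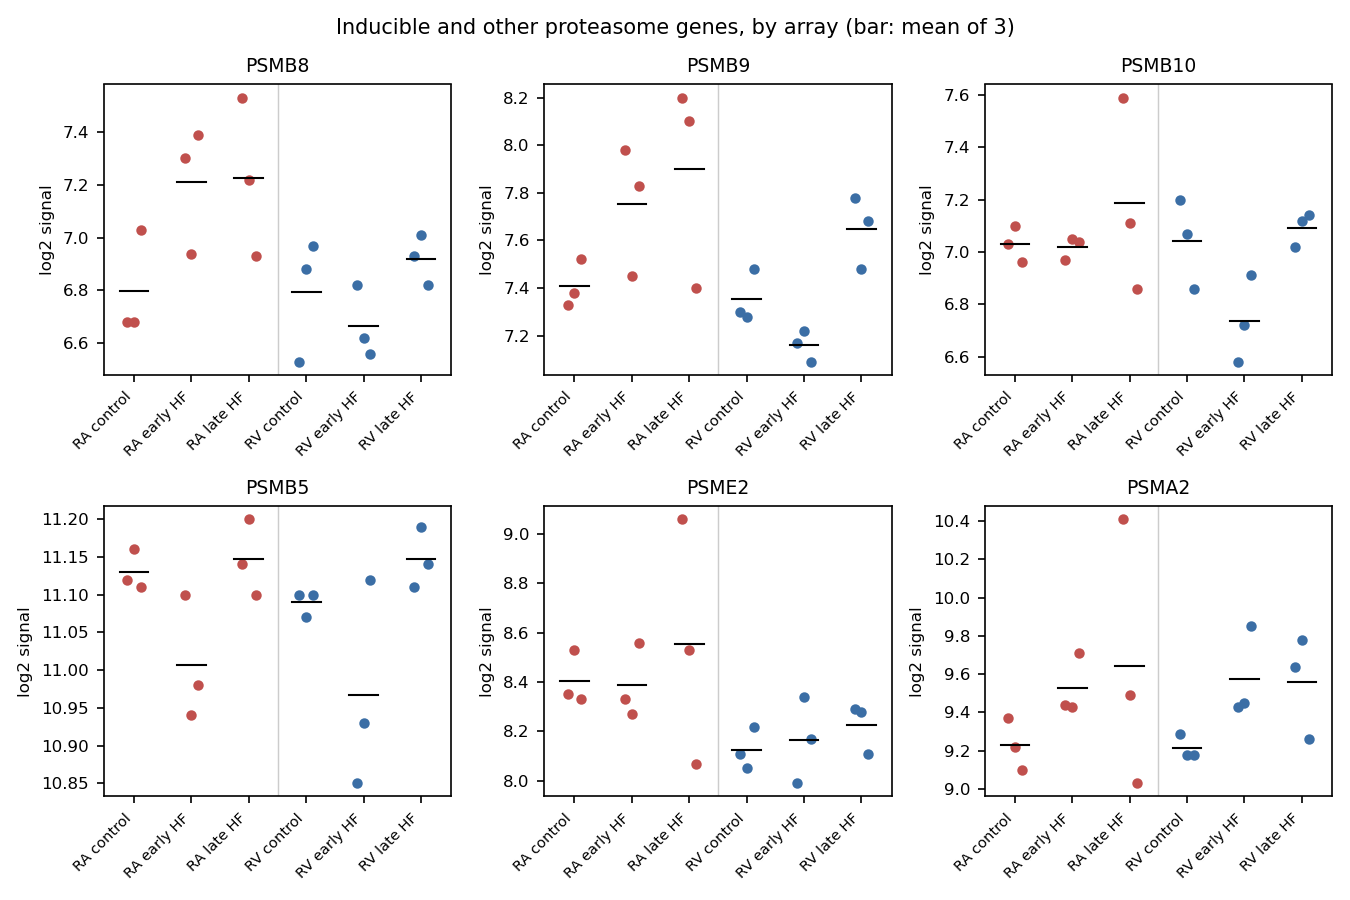
Log2 signal on each array, with a bar at the mean of 3, for PSMB8, PSMB9, PSMB10, PSMB5, PSME2 and PSMA2 in RA (left) and RV (right), each in the order control, early HF, late HF. In RA late HF the array at the top of the PSMB8, PSMB9, PSMB10, PSME2 and PSMA2 panels is RA late 1 and the one at the bottom is RA late 3.

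Genes that surround the inducible proteasome in antigen processing, such as TAP1, TAP2 and B2M, numbered 19 on the list, of which 12 were tested and 0 passed in any comparison of HF with control. At an unadjusted limma p under 0.05 there were 2 in RA early HF, 3 in RA late HF, 0 in RV early HF and 2 in RV late HF, where the shares of all probe sets were 13.9%, 11.7%, 8.48% and 9.21%. B2M, the light chain of MHC class I, was 0.38 higher in RA early HF (SE 0.14, adjusted p = 0.207) and 0.33 higher in RA late HF (SE 0.14, adjusted p = 0.374). UBE2L6, which conjugates the interferon-induced ISG15, was 0.43 higher in RA late HF (adjusted p = 0.361). TAP1, a peptide transporter subunit, was 0.40 higher there (adjusted p = 0.40), while TAP2 was 0.42 lower in RV late HF (adjusted p = 0.508). Of the 12 tested, 9 were positive in RA early HF with a median of 0.03, and in RA late HF 9 with a median of 0.10. The late changes of B2M, UBE2L6 and TAP1 without RA late 3 were 0.48, 0.51 and 0.52 (adjusted p = 0.0642, 0.166 and 0.147). Without RA late 1 the late RA changes of the 12 lay between -0.45 and 0.41. Of these, 0 had an unadjusted limma p under 0.05, and the lowest adjusted p was 0.807.

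The activators PSME1 and PSME2 form a cap on the core particle that interferon also induces. PSME1 was 9.45, 9.30 and 9.60 in RA early HF, against 9.98, 9.94 and 9.90 in RA controls. The groups did not overlap and the change was -0.49 (SE 0.14, adjusted p = 0.109), with -0.47, -0.45 and -0.16 at its other probe sets. With array weights, which let arrays count unequally, it passed (-0.51, adjusted p = 0.0301). Its late RA values were 9.69, 9.90 and 9.97. PSME2 overlapped its controls, at 8.33, 8.27 and 8.56 in RA early HF and 9.06, 8.53 and 8.07 in RA late HF, against 8.35, 8.53 and 8.33 in RA controls. PSME2 was 0.28 higher in RA than in RV controls, with no overlap and no call (adjusted p = 0.492). The nuclear activator PSME3, the activator PSME4 and the inhibitor PSMF1 also had negative fitted differences in RA early HF, as all 5 genes of this role did. Over all probe sets 45.1% of differences were positive there. None of the 5 passed against control. PSME1 in RA early HF was the 1 difference from control with an unadjusted limma p under 0.05, as 13.9% of all probe sets had there.

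The 9 non-ATPase subunits of the base and lid gave no call. None passed in a comparison with control, 0 had an unadjusted limma p under 0.05 there, and in RA early HF they ranged from -0.17 to 0.15. PSMD11 was 9.28, 8.89 and 8.92 in RA late HF, against 8.77, 8.82 and 8.73 in RA controls, without overlap (0.26, SE 0.14, adjusted p = 0.491), and the change was 0.31 without RA late 3 and 0.13 without RA late 1. In RV late HF it was 9.06, 9.16 and 8.95, against 8.89, 8.94 and 8.72 in RV controls (0.21, adjusted p = 0.659). PSMD2, the large scaffold subunit of the base, was 0.15 lower in RA than in RV controls and 0.15 lower in RV late HF than in RV controls, with no call. PSMD8, a lid subunit, was 0.24 higher in RV early HF (adjusted p = 0.763). PSMD14, the deubiquitinase of the lid, had group means within 0.17 of each other. Outside the proteasome, PSMC3IP had group means of 6.41 to 6.51 and PSME3IP1 of 7.69 to 7.86, with no call.

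Members were also counted by whether their HF and control arrays overlapped. In RA early HF 2 of 44 were higher (4.55%) and 9 lower (20.5%), where 8.70% and 10.1% of all probe sets were. The 9 were PAAF1, PSMB4, PSMB5, PSMB6, PSMC3, PSMC5, PSMD10, PSME1 and PSMG1. For RA late HF it was 5 higher and 2 lower, where the shares of all probe sets were 6.16% and 6.22%. The late counts without RA late 3 were 13 higher (29.5%) and 4 lower (9.09%), against 15.8% and 16.4% of all probe sets, and without RA late 1 it was 5 and 2, against 10.1% and 8.87%. In RV early HF it was 5 and 5, with 7.35% and 8.46% of all probe sets, and in RV late HF 4 and 2, with 9.04% and 10.8%. PAAF1 was lower without overlap in all 4 comparisons.

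Late and early HF were compared within each chamber. In RA 41 of the 44 members had a positive late minus early difference (median 0.16), where 52.4% of all probe sets were positive (median 0.01), and 0 members and 0 probe sets passed with limma. At an unadjusted limma p under 0.05 there were 9 members, all higher, or 20.5%, against 8.03% of all probe sets and 5.86% as higher. That count was 17 without RA late 3, where 2236 of 25752 probe sets had such a p, and 6 without RA late 1. Without overlap 7 members were higher and 1, PSMD9, was lower, against 5.32% and 2.4% of all probe sets. PSMC5 (0.58, SE 0.13, adjusted p = 0.357), PSMG1 (0.56, SE 0.14, adjusted p = 0.372), PSME1 (0.40), PSMB6 (0.30) and PSMB4 (0.27) had the smallest p, and PSMD9 (-0.15), PSMD8 (-0.08) and PSMG3 (-0.05) were the negative ones. Without RA late 1 the median was 0.04 with 29 of 44 positive, and of the members PSMC5 alone passed (0.69, adjusted p = 0.0412). In that setting 1 cardiac myocyte marker also passed as higher and 2 fibroblast markers as lower. Without RA late 3 the median was 0.26 with 39 positive and 0 passed, and PSMC5 and PSMG1 were at 0.54 and 0.45. In that setting 15 members (34.1%) were higher without overlap and 1 (2.27%) lower, against 9.7% and 6.67% of all probe sets. When RA late 1 was left out instead, 7 members (15.9%) were higher without overlap and 1 (2.27%) lower, against 11.9% and 7.58% of all probe sets.

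The late difference from control moved with RA late 1 as well. With all arrays the members had a median of 0.09 in RA late HF with 32 of 44 positive, against a median of -0.05 and 16 positive in RA early HF. Without RA late 1 the late median was 0.02 with 26 positive, and without RA late 3 it was 0.14 with 32 positive. In RV late against early HF 16 of 44 members were positive (median -0.02), where 48.8% of all probe sets were, and 0 passed, with 3 at an unadjusted limma p under 0.05 (PSMB9, PSMB10 and PSMG2, all higher, 6.82%), where 5.56% of all probe sets were and 2.38% as higher. The same 3 genes were higher without overlap and 0 were lower, against 6.01% and 6.91% of all probe sets.

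**Figure D4:**
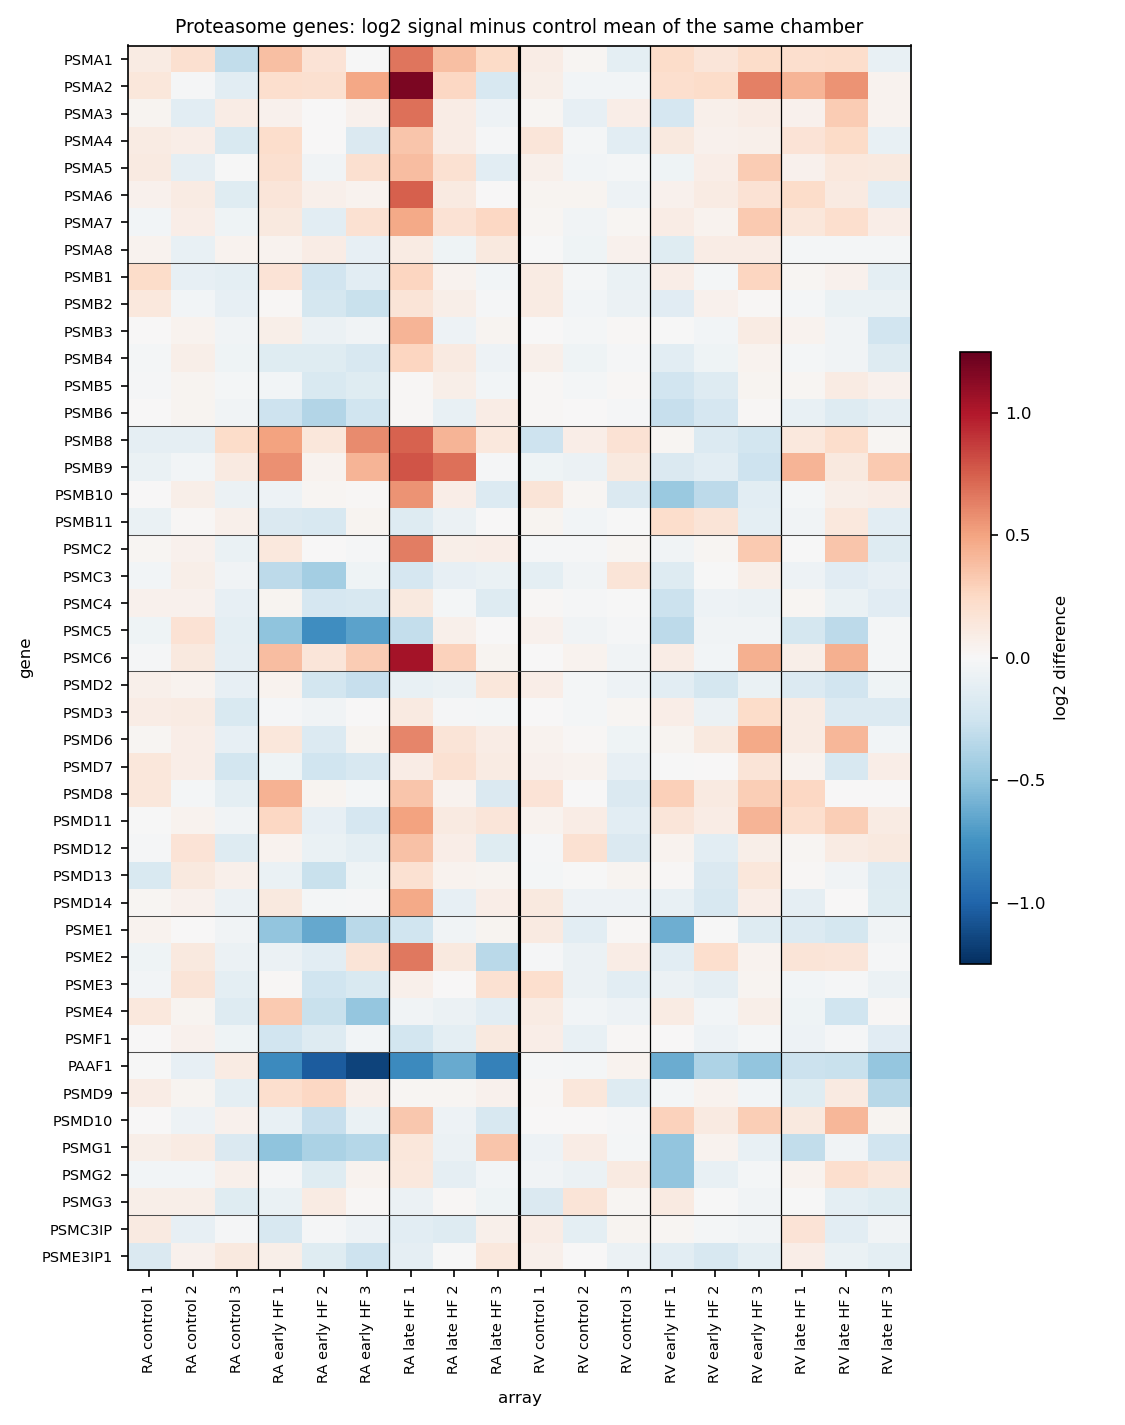
Heat map of the log2 signal of all 45 members minus the mean of its chamber's 3 controls, with members in rows by role and arrays in columns, RA left of RV and each in the order control, early HF, late HF. PAAF1 is below its controls on all 12 HF arrays, and the RA late 1 column is the one with the most high values.

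The chambers were compared in controls, where 1 member of 44, PAAF1, was called, a share of 2.27% against 2.9% of all probe sets. The median RA minus RV difference was 0.00 with 23 positive, where 45.8% of all probe sets were. At an unadjusted limma p under 0.05 it was again 1 member, against 16.3% of all probe sets. PSMG1 was 0.29 lower in RA (adjusted p = 0.335), PSMA1 0.23 lower (adjusted p = 0.482), PSME3 0.18 lower and PSMA7 0.16 lower, while PSMD8 was 0.23 higher and PSMD10 0.17 higher. Without overlap 4 members were higher in RA and 3 lower, with shares of all probe sets of 13.0% and 13.6%. For 41 of the 44 the 95% interval lay within 1.5-fold.

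Tests of a chamber difference in the HF change called 0 members, where 0.00388% of all probe sets passed in early HF and 0.00777% in late HF. At an unadjusted limma p under 0.05 there were 4 members in early HF (PAAF1, PSMC5, PSMB8 and PSMB9, 9.09%) and 1 in late HF (PAAF1), against 5.45% and 7.87% of all probe sets. In early HF 11 members were positive with a median of -0.07, where 47.9% of all probe sets were positive. In late HF it was 35 with a median of 0.11, where 52.5% were. The late median without RA late 3 was 0.15 with 35 positive, and without RA late 1 it was 0.02 with 24 positive.

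Genes that act with the proteasome were read from lists of other pathway members. Of 22 proteasome-associated factors 14 were tested and 0 passed in any comparison of HF with control, with 1 each in RA late HF and RV early HF at an unadjusted limma p under 0.05, where 11.7% and 8.48% of all probe sets were. NFE2L2, a transcription factor of the antioxidant response, was 0.28 higher in RA early HF (adjusted p = 0.376), and HSF1, the heat shock factor, was 0.22 lower (adjusted p = 0.41). AKIRIN2, which brings proteasomes into the nucleus, was 0.41 higher in RV early HF (adjusted p = 0.537). NFE2L1, the factor that raises proteasome genes when proteasomes are inhibited, was 0.49 higher in RA than in RV controls (adjusted p = 0.15).

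Ubiquitin genes and conjugating enzymes gave 12 tested of 14 and 0 calls, with 1 in RA early, 2 in RA late and 1 in RV late HF at an unadjusted limma p under 0.05, where 13.9%, 11.7% and 9.21% of all probe sets were. UBE2C, a conjugating enzyme of mitosis, was 0.59 lower in RV late HF (SE 0.12, adjusted p = 0.386), and UBE2B was 0.30 lower in RA early HF (adjusted p = 0.296). UBA6, an activating enzyme, was 0.45 higher in RA late HF (adjusted p = 0.323, and 0.46 without RA late 3). The late RA count of 2 was 4 without RA late 3, where 4928 of 25752 probe sets had such a p. Without RA late 1 that count was 0, and the late RA changes of the list lay between -0.17 and 0.32. Muscle ubiquitin ligases gave 10 tested of 14 and 0 calls, with 3 in RA early, 1 in RV early and 2 in RV late HF at an unadjusted limma p under 0.05, where 13.9%, 8.48% and 9.21% of all probe sets were. TRIM55, a sarcomere-bound ligase also called MuRF2, was 0.91 higher in RV late HF (SE 0.24, adjusted p = 0.418), 0.57 in RV early HF and 0.51 in RA early HF. TRIM63, or MuRF1, was 0.42 lower in RA early HF (adjusted p = 0.325), and the chaperone-linked ligase STUB1 was 0.28 lower (adjusted p = 0.306).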

How the data were processed

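Total RNA of 18 dog heart samples was hybridised to Affymetrix canine arrays. The authors deposited 1 log2 signal per probe set and array. The labels name MAS5 as the authors' tool, with no version or scale, and the log2 scale was read from the values. Array medians lay between 5.65 and 5.75, and no normalization was added. The number of arrays, 3 per group, limits the precision.

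Of 43035 probe sets, 111 controls and then the 40% of lowest mean were left out. The remaining 25752 were fitted with limma 3.58.1 in R 4.3.3, with 1 mean for each of 6 groups, 12 residual degrees of freedom, a trended variance prior, two-sided tests and Benjamini-Hochberg adjustment over all 25752. Symbols came from the platform annotation. Figures used Python 3.11.15, numpy 2.4.6, pandas 2.3.3 and matplotlib 3.10.9.

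The members and the lists were chosen with earlier results of these data known. Named were members past the threshold, the 5 of smallest p in each direction, the 2 of widest range in each role, the inducible subunits with their counterparts, and the 3 of smallest p of each list. The fit was tested on simulated data before use.

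Deviations from the group means were correlated between arrays with the same number. Between chambers the values were 0.36, 0.24 and 0.42 in controls, 0.17, 0.26 and 0.15 in early HF and 0.05, -0.42 and 0.15 in late HF. Between early and late HF they were 0.36, 0.14 and -0.03 in RA and 0.02, -0.33 and -0.06 in RV. Between controls and HF of 1 chamber they lay between -0.15 and 0.09. Arrays of unlike numbers were not compared and no label identifies the animals, so it is not known whether the numbers pair chambers or stages. Alternatives were quantile normalization, no signal filter, no variance trend, array weights, the compared groups alone, the mean of a gene's probe sets, no probe sets that may cross-hybridise, the replicate block and leaving out each array.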

Additional observations from a re-analysis of the deposited data

How the results depend on the processing

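The counts of members past the threshold were small and moved with single settings. In RA early HF the count of 2 became 1 with the replicate block, where 147 of all 25752 probe sets passed. It became 3 with array weights (PAAF1, PSMC5 and PSME1), where 1279 of all probe sets passed against 209 in the main fit. With single arrays left out it ranged from 1 to 2. Without probe sets that may cross-hybridise PAAF1 still passed, while PSMC5 had no probe set left and was not tested. In RA late HF the count of 1 became 4 with array weights (PAAF1, PSMA1, PSMB8 and PSMB9), where 2578 of all probe sets passed against 18 in the main fit. It became 0 with the compared groups alone, where 0 probe sets passed, and ranged from 0 to 2 with single arrays left out. In RV early HF the count of 0 became 1 with array weights, where 384 of all probe sets passed, and ranged from 0 to 1. In RA late against early HF the count of 0 became 8 with array weights, where 2479 of all probe sets passed, and ranged from 0 to 1. The fit of array weights gave a convergence warning. The replicate block ended the PSMC5 call in RA early HF (-0.65, adjusted p = 0.0558) and changed no other call of a named gene. Of 2258 alternative values for 88 named differences, 2224 kept their direction and side of the threshold, 13 newly passed, 9 no longer passed and 12 changed sign. The sign changes touched 8 differences of at most 0.24 in size, none of which had passed. With the mean of a gene's probe sets, PSMF1 became 0.07 in RA late HF, and PSMD8 and PSMG3 became 0.00 and 0.03 in RA late against early HF. Without probe sets that may cross-hybridise, PSMD11 became -0.07 in RV late HF, PSMD8 and PSMG3 became 0.08 and 0.12 in RA late against early HF, and PSMG3 became 0.01 in RV late against early HF. With array weights the chamber difference in late HF of PSMD14 became -0.03. With single arrays left out, PSMD8 ranged from -0.22 to 0.07 in RA late against early HF, and the chamber difference in late HF ranged from -0.12 to 0.01 for PSMB11 and from -0.15 to 0.01 for PSMC3IP. The cause was not tested. PSMA8 was too dim for a test, and a difference in it was not detectable at this signal.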

Other observations

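Of the 10 muscle ligases tested, 5 were positive and 5 negative in RA late against RA early HF (median 0.04), where 52.4% of all probe sets were positive. Of these ligases 0 passed and 2 had an unadjusted limma p under 0.05, against 8.03% of all probe sets. TRIM63 was 0.50 higher in RA late than in RA early HF (SE 0.19, adjusted p = 0.527), and FBXO32, or atrogin-1, was 0.44 higher (SE 0.17, adjusted p = 0.548). These were 0.34 and 0.19 without RA late 3, and without RA late 1 they were 0.62 and 0.67 (adjusted p = 0.211 and 0.0716). The deubiquitinase USP14, which sits on the proteasome, was 0.26 higher (adjusted p = 0.616). In RV late against early HF the ubiquitin receptor ADRM1 was 0.31 lower (adjusted p = 0.823) and the shuttle factor UBQLN1 0.32 lower (adjusted p = 0.887). Fibroblast markers in the ventricle were positive for 9 of 9 tested in RV early HF (median 0.54) and in RV late HF (median 0.86), where 47.1% and 46.5% of all probe sets were. In RA late HF 8 of 9 were positive (median 0.23), where 47.8% of all probe sets were. Without RA late 1 it was 3 of 9 (median -0.22), and without RA late 3 it was 9 of 9 (median 0.66).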
